A study of Mus musculus with 32 samples.

Results

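This comparison sets late days of culture against early days in mouse UB/OC-1 cells that were kept at 39 °C throughout. The late cultures were those of days 8, 9, 11 and 14 of experiment A and day 9 of experiment B, and the early cultures those of days 1, 2 and 3 of experiment A and day 2 of experiment B. They were chosen by their sample titles alone. Total RNA of each culture was hybridised to oligonucleotide arrays of design a and of design b, so the comparison uses 18 of the 32 samples in the series, 5 late and 4 early arrays for each design. The other samples are day 0 at 33 °C, which the labels call undifferentiated, and days 4 to 7 at 39 °C, and they enter here through the shared estimate of the spread. By their labels the early and late groups share the line and the temperature and differ only in the day. The early and late cells had thus both been moved to 39 °C, and the comparison asks what went on changing after that move. Experiment A has 1 culture a day, and nothing in the labels says whether days were separate dishes, so p-values speak only of the spread among these arrays, which may be technical and includes change from day to day within a group.

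UB/OC-1 is a conditionally immortal line made from the embryonic organ of Corti, the strip of cochlear epithelium in which hair cells and supporting cells arise from common progenitors. Such lines carry a temperature-sensitive viral large T antigen that drives division at the lower temperature and is inactive at the higher one, at which the cells leave the cell cycle and can begin to differentiate. In the ear, progenitors stop dividing before they take on hair cell or supporting cell fates, and BMP, retinoic acid and Notch signals pattern the epithelium around them. As a model it is a cloned, immortalised line in a dish, without the neighbouring tissues that signal to the epithelium in the embryo.

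No quality measure that the files allow differed past the threshold between the compared groups, but 5 against 4 arrays can show only large differences. The floor, the level under which deposited intensities could not be told from noise, was an intensity of 141 for design a and 198 for design b, and it was exceeded by 46.3% to 50.6% of probe sets on the arrays of design a and by 32.0% to 40.4% on those of design b. In 8 exact permutation tests of noise, share above the floor and control probe set ratios, two-sided, the lowest p was 0.0873, for the 3′ to 5′ ratio of Actb on design a (1.31 ± 0.235, SD, n = 5 late, against 1.06 ± 0.131, n = 4 early), and every adjusted p was 0.524. The smallest p such a test can give is 0.0159. On every measure and design the late mean was above the early mean. Noise ran from 68 to 204 on the arrays of design a (means 158 late and 132 early). On design b it ran from 92 to 325 (means 229 late and 186 early). Markers of hair cells were mixed. Myo7a, an unconventional myosin of hair cells, was above the floor on all 9 arrays. Atoh1, the transcription factor that specifies hair cells, was at the floor on all 9. Of the hair cell probe sets, 3 of 10 on design a and 2 of 8 on design b were above it on at least 3 of the 4 early arrays. Single markers of other cell types were at the floor on all 9 (Cdh1 and Epcam of epithelia, Pecam1 of endothelium and Col1a2 of fibroblasts), but other members of the same lists were not. On at least 3 of the 4 early arrays, 7 of 14 mesenchymal, 8 of 24 epithelial and 4 of 16 endothelial probe sets of design a were above the floor, and 8 of 17, 2 of 13 and 3 of 8 of design b. The probe sets of Ptprc, the pan-leukocyte antigen (mean 1116 early and 1480 late), and of the macrophage gene Cd68 (268 and 337) were above it on all 9, and that of the muscle factor Myod1 on 8. Ptprc, Cd68 and Myod1 gave no call, while Krt18 of the epithelial list and Dcn and Acta2 of the mesenchymal list did.

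Most of what the arrays could measure moved little between early and late days, and a small group of genes moved several-fold. Of 7726 probe sets tested, 76 (0.984%) differed at an adjusted p under 0.05, with 33 higher (0.427%) and 43 lower (0.557%) late. The differences of the higher probe sets ran from 1.03 to 3.37 on the log2 scale with a median of 1.72, a 3.31-fold change, and 7 exceeded 4-fold. For the lower ones the size ran from 0.84 to 3.03 with a median of 1.45, a 2.73-fold change, and 4 exceeded 4-fold. The late and early arrays did not overlap for 71 of the 76. Over all probe sets tested, 143 (1.85%) had every late array above every early one and 155 (2.01%) had every late array below. The median change of all probe sets was 0.05, with 57.9% higher and a SD of 0.41, and 113 were higher and 115 lower by more than 2-fold. An unadjusted p under 0.05 was reached by 773.

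**Figure D1:**
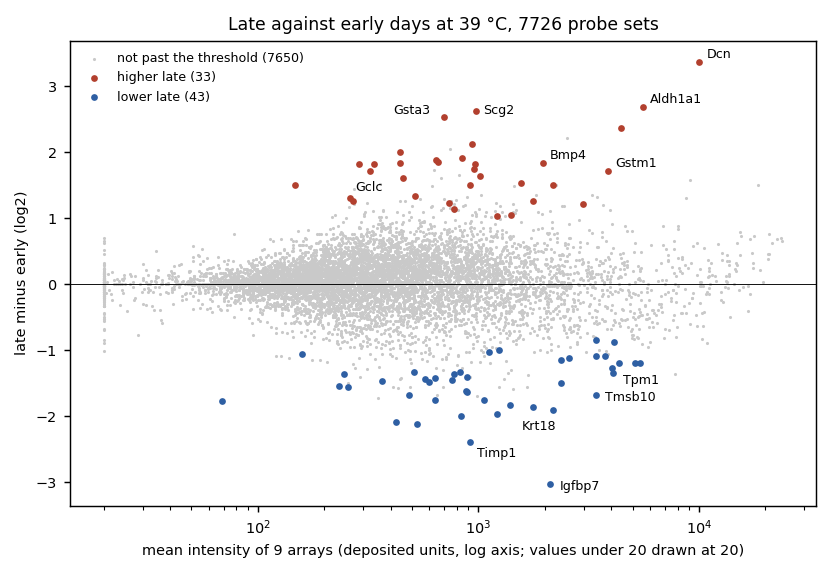
Change from early to late days (y axis, log2) against mean intensity over the 9 arrays (x axis, log scale) for the 7726 probe sets tested, with the 33 higher in red, the 43 lower in blue and the rest in grey. Probe sets past the threshold lie mostly at higher intensity, and Dcn (3.37) and Igfbp7 (-3.03) mark the extremes.

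Most calls were those of bright probe sets. At a mean intensity under 204, 3 of 2575 were called, between 204 and 515 15 of 2575, and over 515 58 of 2576. The median standard error was 0.18, 0.35 and 0.30 in the same order, and with or without a call 1, 32 and 80 probe sets were higher and 8, 32 and 75 lower by more than 2-fold. Low intensities are held at the floor, so small values there are partly set by it. Of the 76, 52 carry 1 gene symbol and stand for 50 genes, 20 carry none and 4 carry several. Of the 43 lower probe sets, 19 have names ending in f_at, which marks sequence shared by a gene family, against 0 of the 33 higher. Such probe sets had a median change of -0.05 over the 1258 tested, against 0.07 for the other 6468. The named genes measured by one here are Fn1, Tmsb10, Rps26, Rpl12, Rpl10a, Hk1, Rrm2, B2m and Cdkn1a, and the gene they report is uncertain. Of the 50 genes, 12 had several probe sets tested, and all 12 had the same sign on each of them. Only 2 of the 12, Fn1 and Psmb8, had more than 1 probe set called.

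The number of calls moved with the samples used. With experiment as a block in the fit, 184 probe sets were called, 82 higher (1.06%) and 102 lower (1.32%), and all 76 were among them. Fits that each left out 1 culture gave 32 calls without day 1 of experiment A, 30 without day 2, 118 without day 3, 46 without day 9, 42 without day 11, 39 without day 14 and 41 without day 2 of experiment B. Taking only days 11 and 14 as late gave 250 calls, 159 of them higher. That late group holds arrays of experiment A only, 1 for each of those days on each design, while the early group keeps experiment B.

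Calls made in experiment A alone could be looked up in a second experiment. Experiment A alone, with 4 late and 3 early arrays for each design, called 31 probe sets (0.401%), 11 higher and 20 lower. Of the 76 called over both experiments, 25 were among these 31, so the comparison does not cover the rest of the 76. Experiment B has 1 array at day 9 and 1 at day 2 on each design, none of which entered that fit. All 31 differed in the same direction in experiment B, and 19 of them by more than 2-fold. Their median size was 1.55 on the log2 scale in experiment A and 1.09 in experiment B. Over all 7726 probe sets, 50.6% had the same sign in both experiments, 27.7% the opposite sign and the rest no difference in experiment B, with r = 0.40 across probe sets, which share arrays and are no independent replicates. Among 242 probe sets past 2-fold in experiment A that were not called there, 208 (86.0%) had the same sign. Calling on probe sets above the floor on at least 8 arrays gave 82 calls in experiment A, of which 80 kept their sign, and doubling the floor left 7 calls, all with the same sign.

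**Figure D2:**
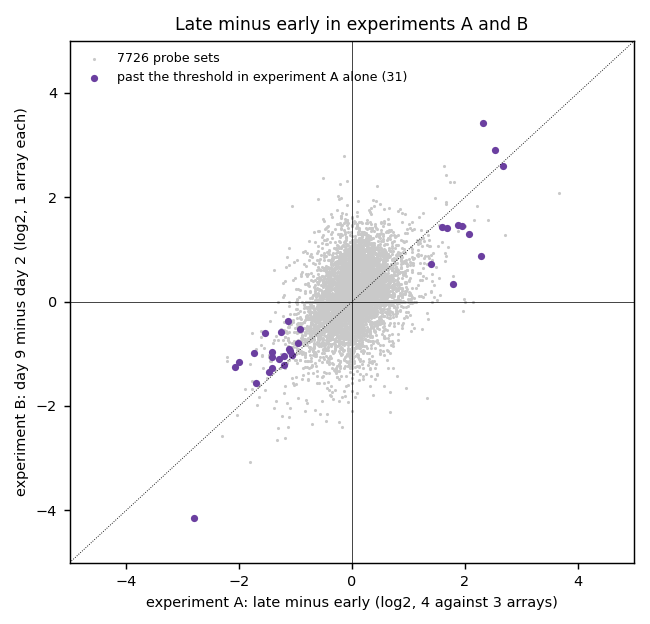
Late minus early in experiment A (x axis, log2, 4 against 3 arrays per design) against day 9 minus day 2 in experiment B (y axis, log2, 1 array each) for 7726 probe sets. The 31 called in experiment A alone, in purple, all lie to the upper right or the lower left of the origin, and the dotted line marks equal change.

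The medians of the called probe sets moved over the early and the middle days and by less over the late days of experiment A. Relative to the early mean, the median of the 33 higher probe sets was -0.31 on day 1 of experiment A, 0.38 on day 3, 0.63 on day 4, 1.27 on day 7 and 1.80 on day 14. In experiment B it was -0.02 on day 2, 0.76 on day 4 and 1.43 on day 9. The median of the 43 lower probe sets was 0.38, -0.34, -0.58, -1.10 and -1.61 on the same days of experiment A. On days 8, 9 and 11 of experiment A the higher ones stood at 1.58, 1.76 and 1.66. The lower ones stood at -1.34, -1.41 and -1.55 on those days. At day 0 of experiments A and B the medians were -0.72 and -0.69 for the higher probe sets and 0.24 and 0.13 for the lower ones. The late and early values were used to choose the probe sets, so this is a description of their course. Calls of a linear slope on log2 of the day, over all arrays at 39 °C, numbered 220.

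**Figure D3:**
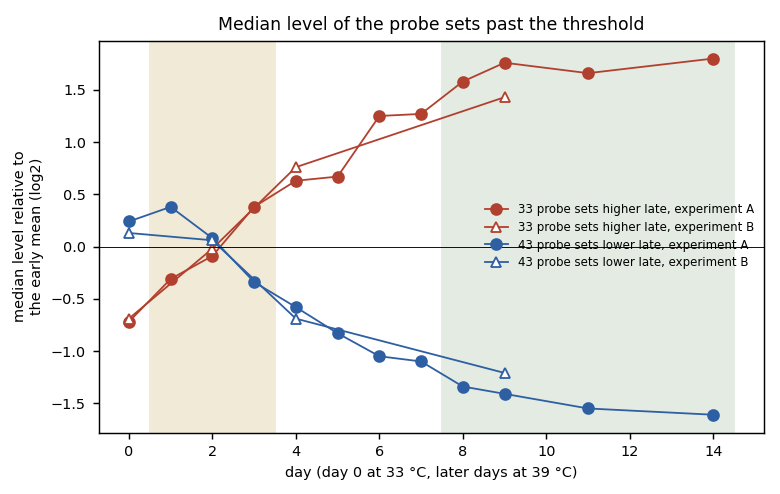
Median level of the 33 higher (red) and 43 lower (blue) probe sets by day (x axis), in log2 relative to the mean of the early arrays (y axis), with circles for experiment A and open triangles for experiment B. Shading marks the early and late days, and both medians keep moving through days 4 to 7.

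Below, intensities are given in the order days 1, 2 and 3 of experiment A and day 2 of experiment B for the early arrays, and days 8, 9, 11 and 14 of experiment A and day 9 of experiment B for the late ones. Each change is a difference of mean log2 intensities, late minus early, ± its standard error (n = 5 against 4 arrays). Over all probe sets tested 0.984% were called. A list with 0 calls is therefore near that share, and its 0 is no result about its members. A fold is called a low estimate if some arrays of the lower group were held at the floor and is written as at least that value if all of them were. A gene or probe set said to pass only with the block was called with it and not in the fit that gave the 76 calls. Other alternatives were not considered in that wording. Folds that rest on the floor move with it. With the floor doubled, the differences of genes near it were 1.88 for Scg2, 1.53 for Gsta3, 1.19 for Atf5, 1.12 for Man1a, 0.91 for Ifit3, 0.74 for Gclc, 0.63 for Ddit3, 0.40 for Tspyl4, 0.39 for Emb and -0.60 for Acta2, and the calls of Atf5, Ifit3, Ddit3, Tspyl4, Emb and Acta2 ended.

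Genes of DNA replication and mitosis were mostly lower late, but few passed the test. The list for replication and deoxynucleotide synthesis held 42 probe sets, of which 2 fell and 0 rose, with a median change of -0.19 and 12 of 42 higher. That for mitosis and cyclins held 58, of which 1 fell and 0 rose, with a median of -0.31 and 15 higher. Over all probe sets the median was 0.05 and 57.9% were higher. The fallen genes were both subunits of ribonucleotide reductase, which makes deoxynucleotides for DNA synthesis, and Ube2c, which feeds ubiquitin to the anaphase-promoting complex so that mitotic cyclins are destroyed. Intensity of Rrm1, the large subunit, was 1028, 670, 610 and 829 early and 128, 244, 274, 358 and 233 late. The groups did not overlap, and the day 8 array was at the floor. Rrm1 fell by 1.68 ± 0.30, 3.21-fold as a low estimate (adjusted p = 0.00853). For Rrm2, the small subunit, it was 1200, 622, 496 and 1231 early and 296, 281, 231, 241 and 560 late, with day 9 of experiment B above the lowest early array. Its difference was -1.43 ± 0.34 (adjusted p = 0.0458), but of its 4 probe sets only this one, shared by a family, passed. A second fell by 1.15 in the fit with the block alone (adjusted p = 0.0221). For Ube2c intensity was 1350, 470, 572 and 714 early and 374, 287, 330, 293 and 185 late, without overlap (-1.32 ± 0.30, adjusted p = 0.0388).

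Other proliferation genes gave no call. Mki67, a nuclear protein of cycling cells, had mean intensities of 874 ± 233 early and 624 ± 107 late (SD; -0.47 ± 0.24, adjusted p = 0.561), and Pcna, the ring that holds DNA polymerase on its template, 726 ± 342 early and 624 ± 160 late (-0.17 ± 0.33, adjusted p = 0.932). Cdk4, a cyclin-dependent kinase that starts the cycle, passed only with the block, where it fell by 0.69 (adjusted p = 0.0453). The cyclin-dependent kinase inhibitor genes Cdkn1a (-0.59 ± 0.48, adjusted p = 0.772) and Cdkn1b (0.77 ± 0.38, adjusted p = 0.511) did not pass. Gas1, a membrane protein named for its rise at growth arrest, had intensities of 375, 1005, 3189 and 2061 early and 5671, 6246, 8045, 8098 and 5004 late. It rose by 2.37 ± 0.44, 5.18-fold (adjusted p = 0.011), with no overlap. The stress-induced growth arrest gene Gadd45a passed only with the block (1.30, adjusted p = 0.0365). Of 48 probe sets for chromatin proteins 0 passed, and with the block 2 fell, those of the histone deacetylase gene Hdac1 (-0.72, adjusted p = 0.0486) and the nucleosome assembly gene Nap1l1 (-0.96, adjusted p = 0.0481). In fits that each left out 1 culture, the call of Ube2c ended in 6 of 9 (days 1, 9, 11 and 14 of experiment A and both days of experiment B, adjusted p from 0.0696 to 0.198), that of Rrm2 in 7 (days 1, 2, 8, 9, 11 and 14 of experiment A and day 2 of experiment B, 0.0614 to 0.228) and that of Gas1 without day 2 of experiment A (0.0526). That of Rrm1 held in all 9 but ended with late as days 11 and 14 (0.155), late as days 9 to 14 (0.072) and experiment A alone (0.0764).

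Promoters of the replication and mitosis genes that fell are shown because genes of this class are often read through CCAAT boxes and E2F sites just upstream of their starts. Each covers 250 bases before and 50 after the RefSeq start (GRCm38.p6). Motifs searched on both strands are in capitals: CCAAT (the box bound by NF-Y), TTTGAA (the core of the cell cycle homology region), GGCGGGAA and also TTTGGCGC (forms of the E2F site), GAGTCA (part of the AP-1 site) and TGACNNNGC (the core of the antioxidant response element, added after the data were seen). Of 32817 promoters in the table, 37.4% hold CCAAT, 17.9% TTTGAA, 2.19% GGCGGGAA, 0.515% TTTGGCGC, 15.3% GAGTCA and 12.4% TGACNNNGC. Rrm1 (chr7:102441445-102441744, plus strand) holds CCAAT starting at -91 and -45 and GGCGGGAA at -67 on the opposite strand. Rrm2 (chr12:24708004-24708303, plus strand) holds CCAAT at -50 and TGACNNNGC at -66 on the opposite strand. Ube2c (chr2:164769679-164769978, plus strand) holds 6 CCAAT matches between -228 and -57, a pair of which overlap. Those at -183, -88 and -57 are on the opposite strand, as is its TTTGAA at -29. A match is a description of these letters and not a bound site.
Rrm1: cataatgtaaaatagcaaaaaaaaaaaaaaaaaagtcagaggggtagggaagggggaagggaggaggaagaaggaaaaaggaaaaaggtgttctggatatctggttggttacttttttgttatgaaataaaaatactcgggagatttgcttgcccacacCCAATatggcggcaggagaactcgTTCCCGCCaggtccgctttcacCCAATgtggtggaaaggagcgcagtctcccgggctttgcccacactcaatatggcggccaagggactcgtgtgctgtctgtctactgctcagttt
Rrm2: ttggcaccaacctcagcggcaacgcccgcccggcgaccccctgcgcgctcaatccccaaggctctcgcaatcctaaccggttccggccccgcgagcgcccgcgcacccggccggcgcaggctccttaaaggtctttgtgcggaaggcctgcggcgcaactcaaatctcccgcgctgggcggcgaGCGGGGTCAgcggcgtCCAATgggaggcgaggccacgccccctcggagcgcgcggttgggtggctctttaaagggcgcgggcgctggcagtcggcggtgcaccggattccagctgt
Ube2c: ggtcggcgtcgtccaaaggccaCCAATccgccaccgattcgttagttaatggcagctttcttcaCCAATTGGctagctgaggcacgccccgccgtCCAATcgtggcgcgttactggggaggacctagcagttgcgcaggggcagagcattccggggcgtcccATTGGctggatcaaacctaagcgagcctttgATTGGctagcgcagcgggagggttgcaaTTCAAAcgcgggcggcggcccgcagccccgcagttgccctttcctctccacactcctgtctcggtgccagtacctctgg

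A source of retinoic acid, a BMP and a GATA factor, all known from otic development, rose. On the list for development of the ear, 3 of 36 probe sets rose and 0 fell. The median change was 0.24 over all arrays, 0.25 within experiment A and 0.28 within experiment B, and 29 of 36 were higher. With the block 6 rose. Aldh1a1 encodes a retinaldehyde dehydrogenase that makes retinoic acid. Its intensity was 623, 1620, 2917 and 1055 early and 10511, 6404, 10054, 10496 and 6395 late. Every late array was more than 2-fold above every early one. Aldh1a1 rose by 2.69 ± 0.39, 6.43-fold (adjusted p = 0.00255), by 2.68 in experiment A and 2.60 in experiment B. At day 0 its intensity was 429 in experiment A and 229 in experiment B, below every early array.

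Bmp4, a signal that patterns the border of the organ of Corti, had the lowest adjusted p of the comparison together with Tmsb10. Its intensity was 603, 760, 1001 and 892 early and 3431, 2685, 3069, 2783 and 2428 late, a rise of 1.84 ± 0.24, 3.57-fold (adjusted p = 0.00111). Fst, which encodes the BMP and activin antagonist follistatin, moved the other way, from 862, 1573, 1267 and 1972 to 653, 510, 349, 443 and 315. It fell by 1.63 ± 0.30, 3.09-fold (adjusted p = 0.011), without overlap, and without day 2 of experiment A its adjusted p was 0.0555. These were the only calls among 34 probe sets for BMP, TGF-beta, Wnt and hedgehog signalling. Id2 and Id4, inhibitors of basic helix-loop-helix factors and known BMP targets, passed only with the block (1.23, adjusted p = 0.0235, and 1.17, adjusted p = 0.00826). Every late array was above every early one for both, with Id4 between 467 and 711 early and between 1153 and 1870 late.

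Gata2, a zinc finger factor of the developing ear, had intensities of 517, 288, 417 and 460 early and 591, 1023, 1137, 1136 and 1061 late (1.23 ± 0.27, adjusted p = 0.0294). Its second probe set, at 1208 to 1892 early and 2319 to 7118 late, passed only with the block (1.32, adjusted p = 0.00449). Its call ended in 7 of 9 fits that left out 1 culture (days 1, 2, 9, 11 and 14 of experiment A and both days of experiment B, adjusted p from 0.0514 to 0.111). Gata3, a relative needed for cochlear development, was at 246 ± 210 early and 619 ± 191 late, with overlap and no call (1.05 ± 0.37, adjusted p = 0.249). The hair cell list gave 0 calls over 11 probe sets (median 0.13), and Myo7a had 277 ± 70.3 early and 336 ± 98.7 late (0.26 ± 0.31, adjusted p = 0.864). The Notch pathway gave 0 over 18 (median -0.07), and Notch1 had 0.37 ± 0.38 (adjusted p = 0.834), with opposite signs in experiments A (0.69) and B (-0.83). Of 78 probe sets for developmental transcription factors 0 passed, with or without the block.

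Genes of the matrix and the cell surface moved both ways: 3 proteoglycan genes rose, while fibronectin and an inhibitor of matrix proteases fell. Of 39 probe sets for proteoglycans, glycoproteins and matricellular proteins 3 rose, 2 fell and 34 did not pass (median 0.03). Dcn encodes decorin, a small leucine-rich proteoglycan that binds collagen fibrils. Its intensity was 180, 2281, 6777 and 1218 early and 18038, 16368, 17561, 22560 and 5146 late. Day 1 was at the floor, and day 9 of experiment B lay below day 3 of experiment A, so the groups overlapped. Dcn rose by 3.37 ± 0.72, 10.3-fold as a low estimate (adjusted p = 0.0246), with 3.67 in experiment A and 2.08 in experiment B. The size rests on the early arrays at either end: without day 1 the difference was 2.43 (adjusted p = 0.0825) and without day 3 it was 4.13. At day 0 it was below the floor in both experiments (89 and 61). Ogn, which encodes osteoglycin of the same family, had 134, 71, 516 and 315 early and 412, 960, 929, 910 and 1548 late. Days 1 and 2 of experiment A were at the floor, so its difference is a low estimate (1.88 ± 0.41, adjusted p = 0.0269). Sdc2, the cell surface heparan sulfate proteoglycan syndecan, had 132, 633, 487 and 561 early and 2035, 1207, 1136, 1007 and 1434 late, without overlap. Its day 1 array was at the floor, so its difference is a low estimate too (1.74 ± 0.36, adjusted p = 0.0202).

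Fn1 encodes fibronectin, which links cells to the matrix through integrins. On design b its intensity was 4426, 3948, 2938 and 3129 early and 1300, 1258, 564, 660 and 1302 late, with no overlap. It fell by 1.90 ± 0.29, 3.73-fold (adjusted p = 0.00405), and by 1.83 ± 0.29 on design a (adjusted p = 0.00405). Timp1, an inhibitor of matrix metalloproteases, went from 1696, 2037, 819 and 2104 to 484, 283, 245, 188 and 352, with day 14 at the floor. It fell by 2.39 ± 0.38, 5.25-fold as a low estimate (adjusted p = 0.00405). Igfbp7, a secreted protein related to the binding proteins of insulin-like growth factors, showed the largest decrease of the comparison. Its intensity was 4845, 4982, 3782 and 2566 early and 944, 838, 358, 619 and 146 late. It fell by 3.03 ± 0.50, 8.14-fold (adjusted p = 0.00474), with -2.80 in experiment A and -4.14 in experiment B.

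Collagen genes gave 0 calls over 32 probe sets (median 0.12). With the block, both chains of basement membrane collagen IV fell, Col4a1 by 0.64 (adjusted p = 0.0395) and Col4a2 by 0.93 (adjusted p = 0.00301), and so did Lox, the enzyme that cross-links collagen, by 1.22 (adjusted p = 0.00529). Col6a2, a chain of collagen VI, rose with the block by 1.45 (adjusted p = 0.0209), from 623 to 1867 early to 1062 to 4352 late. In that fit the laminin chain gene Lamb3 rose by 1.43 (adjusted p = 0.0355) and the fibulin gene Fbln2 fell by 1.02 (adjusted p = 0.0376). Among the matrix genes called without the block, leaving out 1 culture ended the call of Dcn in 6 of 9 fits (days 1, 2, 9, 11 and 14 of experiment A and day 2 of experiment B, adjusted p from 0.0574 to 0.0825) and that of Ogn in 6 (days 1, 2, 9, 11 and 14 of experiment A and day 9 of experiment B, 0.0572 to 0.156). Those of Sdc2, Fn1, Timp1 and Igfbp7 held in all 9, but with late as days 11 and 14 those of Igfbp7 (-3.05, adjusted p = 0.0532) and Sdc2 (1.44, 0.138) ended, that of Sdc2 also with late as days 9 to 14 (0.0792), without a filter (0.0683), with 9 arrays (0.0887) and in experiment A alone (0.0917), where that of Timp1 ended too (0.0565).

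**Figure D4:**
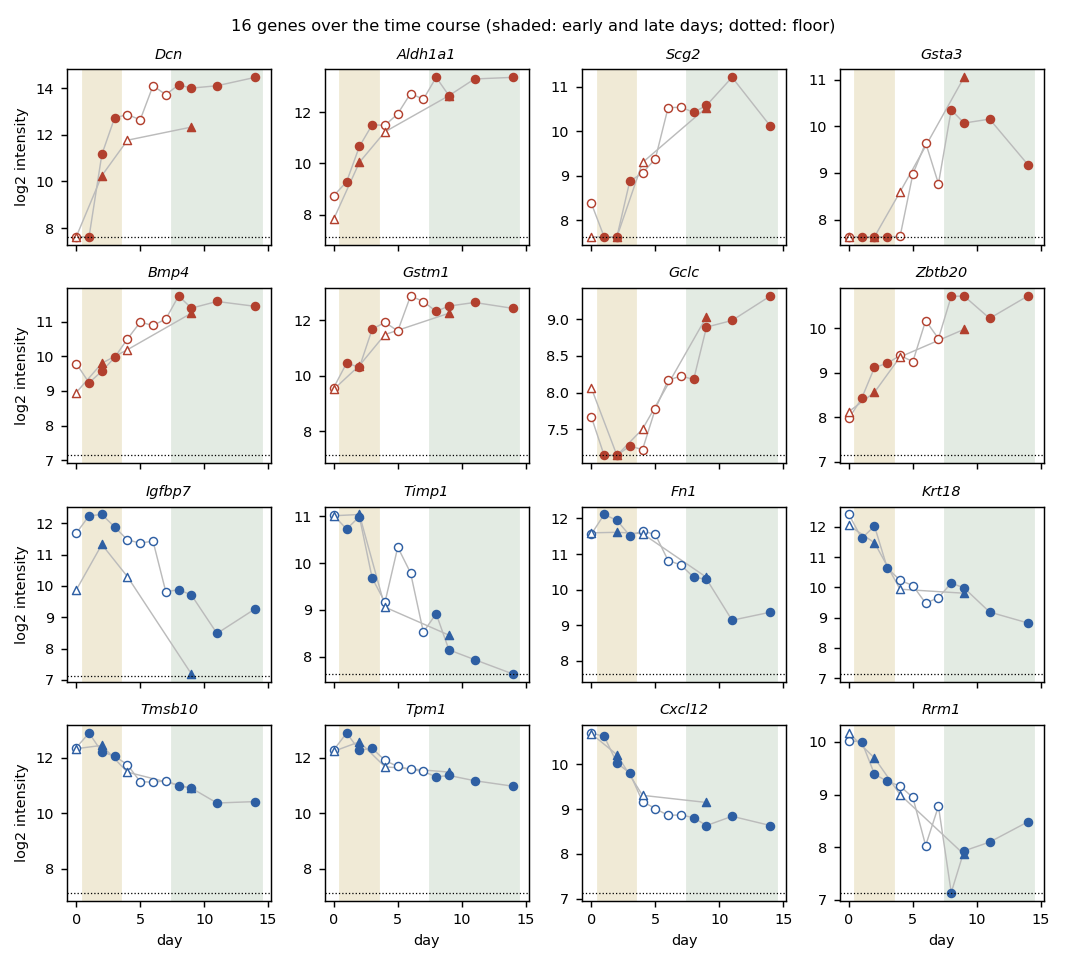
Intensity (y axes, log2, values below the floor drawn at it) of 16 genes by day (x axes), 8 that rose in red and 8 that fell in blue, with circles for experiment A and triangles for experiment B, filled for early and late days and open for day 0 and days 4 to 7. The dotted line is the floor, and in each panel the late points lie beyond the early ones except for day 9 of experiment B in Dcn.

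Genes of the actin cytoskeleton were mostly lower late, and 3 passed the test. Of the 103 on the list 3 fell and 0 rose. The median change was -0.22 over all arrays, -0.32 within experiment A and -0.24 within experiment B, and 26 of 103 were higher. With the block 10 fell and 0 rose. Tmsb10 encodes a thymosin that binds actin monomers. Its intensity was 7549, 4718, 4249 and 5551 early and 2031, 1913, 1318, 1366 and 1901 late. The lowest early array was more than 2-fold above the highest late one. It fell by 1.68 ± 0.21, 3.21-fold (adjusted p = 0.00111). Tpm1, a tropomyosin that lines actin filaments, had 7597, 4951, 5193 and 6107 early and 2541, 2633, 2311, 2013 and 2865 late (-1.26 ± 0.18, adjusted p = 0.00255). Acta2, the actin of smooth muscle and contractile fibroblasts, had 929, 903, 347 and 392 early and was at the floor on all 5 late arrays. It was at least 2.94-fold lower (adjusted p = 0.0371).

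The genes that passed only with the block were Tagln2, Tpm4, Pdlim1, Iqgap1, Cfl1 and Pfn1, with a second probe set of Tmsb10. Cfl1 encodes cofilin, which severs filaments, and had 10845, 6652, 6993 and 7264 early and 6398, 4266, 3383, 3176 and 4846 late, without overlap (-0.87, block adjusted p = 0.0283). Pfn1 encodes profilin, which feeds monomers to growing ends, and ranged from 2016 to 3830 early and from 946 to 1762 late (-0.96, block adjusted p = 0.011). Pdlim1, a LIM protein of stress fibres, had the largest change of these, from 499 to 2266 early to 113 to 367 late (-1.65, block adjusted p = 0.0362). Outside that list, Krt18, Tubb3 and Basp1 fell. Krt18, a keratin of simple epithelia, had 3147, 4168, 1597 and 2844 early and 1129, 1013, 582, 453 and 896 late, without overlap (-1.85 ± 0.30, adjusted p = 0.00405), while its partner Krt8 was near the floor, at a mean of 147 early and 149 late on design a, and gave no call. Tubb3, a tubulin typical of neurons and the only call among 27 probe sets for tubulins and microtubule proteins (median 0.12, 17 higher), had 1204, 1307, 1053 and 1069 early and 530, 459, 275, 479 and 420 late (-1.45 ± 0.29, adjusted p = 0.0164). Basp1, a membrane protein of growth cones, went from 7511 ± 2737 to 3210 ± 646 (-1.19 ± 0.24, adjusted p = 0.02). Vim, the intermediate filament vimentin, had 3814 ± 2092 early and 2151 ± 952 late and did not pass (-0.80 ± 0.36, adjusted p = 0.464). Leaving out 1 culture ended the call of Acta2 in 7 of 9 fits (days 1, 2, 8, 9, 11 and 14 of experiment A and day 9 of experiment B, adjusted p from 0.0549 to 0.184), that of Basp1 in 3 (days 1, 2 and 14 of experiment A, 0.0597 to 0.0882) and that of Tubb3 in 2 (days 1 and 2 of experiment A, 0.0614 to 0.0641).

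Gsta3, Gstm1, Gstm2 and Gclc, genes of glutathione synthesis and use, rose, and so did Nfe2l2 and Cp of the same list. For glutathione, antioxidant and metal handling, 6 of 57 probe sets rose and 0 fell. The median change was 0.22 over all arrays, 0.32 within experiment A and 0.15 within experiment B, and 42 of 57 were higher. With the block 9 rose and 1 fell. Gsta3 encodes an alpha-class glutathione transferase. Its intensity was -37, 33, 69 and 4 early, all at the floor, and 1307, 1074, 1139, 578 and 2121 late. It was at least 5.78-fold higher (adjusted p = 0.00367). On day 4 it was at 199 in experiment A, just above the floor, and at 386 in experiment B. Gstm1, a mu-class transferase, had 1408, 1263, 3277 and 1323 early and 5102, 5823, 6368, 5501 and 4871 late, a rise of 1.72 ± 0.30, 3.31-fold (adjusted p = 0.0076). Its neighbour Gstm2 had 587, 411, 1699 and 651 early and 2742, 2453, 2272, 1420 and 1789 late, with day 14 below day 3 (1.53 ± 0.35, adjusted p = 0.038). The transferases of one class are close in sequence, so their probe sets may share signal.

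Gclc, the catalytic subunit of the enzyme that limits glutathione synthesis, had 108, 118, 154 and 89 early, 3 of them at the floor, and 290, 476, 507, 640 and 525 late. It rose by 1.71 ± 0.29, 3.28-fold as a low estimate (adjusted p = 0.00529), and by 1.19 on its second probe set with the block (adjusted p = 0.0174). At day 0 the first probe set had 203 in experiment A and 267 in experiment B, above every early array and below every late one. Nfe2l2 encodes the transcription factor NRF2, which switches on glutathione genes under oxidative stress. It had 487, 684, 1125 and 865 early and 1543, 1497, 1686, 1446 and 1540 late, without overlap (1.03 ± 0.23, adjusted p = 0.0363). Cp, which encodes the copper-carrying ferroxidase ceruloplasmin, had 362, 286, 363 and 231 early and 808, 1132, 1914, 1851 and 633 late (1.92 ± 0.38, adjusted p = 0.0162). With the block, the mitochondrial aldehyde dehydrogenase gene Aldh2 rose on both of its probe sets (1.30, adjusted p = 0.0193, and 1.15, adjusted p = 0.0166), and the omega-class transferase gene Gsto1 fell by 1.02 (adjusted p = 0.0481). Median scaling left 4 of the 6 calls, without Gstm2 and Nfe2l2. Leaving out 1 culture ended the call of Nfe2l2 in 8 of 9 fits (all but day 3 of experiment A, adjusted p from 0.0524 to 0.184), that of Gstm2 in 7 (all but day 3 of experiment A and day 9 of experiment B, 0.0509 to 0.184) and that of Cp in 4 (days 2, 11 and 14 of experiment A and day 2 of experiment B, 0.0541 to 0.059). Those of Gsta3, Gstm1 and Gclc held in all 9, but that of Gsta3 ended with late as days 11 and 14 (0.113), and those of Gstm1 (0.0569) and Gclc (0.0528) in experiment A alone.

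The promoters of Gsta3, Scg2 and Aldh1a1, 3 of the 4 largest increases, are shown beside those of the genes that fell (the fourth, Dcn, is named only). Capitals mark the same motifs. The antioxidant response element, searched as TGACNNNGC, is bound by NRF2 with small Maf proteins. In Gsta3 (chr1:21240335-21240634, plus strand) it starts at -121, with CCAAT at -171 and -47 and TTTGAA at -13, all 3 on the opposite strand. In Scg2 (chr1:79439977-79440276, minus strand) TTTGAA starts at -110, and GAGTCA at -48 overlaps TGACNNNGC at -51 on the opposite strand. Aldh1a1 has 2 starts in the table, and the one shown (chr19:20601718-20602017, plus strand) holds CCAAT at -72 and -2. The other start of Aldh1a1 holds TTTGAA at -131 (opposite strand) and -87, GAGTCA at -57 (opposite strand) and no CCAAT. Of the other antioxidant genes searched, Nfe2l2 holds TGACNNNGC at -240, overlapping GAGTCA on the opposite strand. The promoters of Gstm1 (a pair) and Gstm2 hold CCAAT and no TGACNNNGC.
Gsta3: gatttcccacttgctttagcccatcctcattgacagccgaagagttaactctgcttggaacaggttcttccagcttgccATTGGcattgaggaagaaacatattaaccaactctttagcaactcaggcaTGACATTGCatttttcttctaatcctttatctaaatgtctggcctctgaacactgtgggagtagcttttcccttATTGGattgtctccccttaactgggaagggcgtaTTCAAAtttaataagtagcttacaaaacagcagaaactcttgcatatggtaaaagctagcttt
Scg2: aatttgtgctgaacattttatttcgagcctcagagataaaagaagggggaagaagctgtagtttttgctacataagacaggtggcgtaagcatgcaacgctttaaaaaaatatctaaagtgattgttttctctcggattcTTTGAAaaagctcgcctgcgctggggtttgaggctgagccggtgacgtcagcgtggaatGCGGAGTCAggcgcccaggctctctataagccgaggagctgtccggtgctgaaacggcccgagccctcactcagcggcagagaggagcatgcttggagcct
Aldh1a1: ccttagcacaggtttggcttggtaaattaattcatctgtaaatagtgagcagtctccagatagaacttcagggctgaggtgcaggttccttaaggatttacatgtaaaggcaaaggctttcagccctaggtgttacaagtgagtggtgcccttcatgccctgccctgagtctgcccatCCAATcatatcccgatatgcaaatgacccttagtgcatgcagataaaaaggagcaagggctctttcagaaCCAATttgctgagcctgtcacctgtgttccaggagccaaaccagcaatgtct

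A pair of transcription factors of the endoplasmic reticulum and amino acid stress response rose. Of 46 probe sets 2 rose, 0 fell and 44 did not pass (median 0.13, 30 of 46 higher), and with the block 6 rose and 0 fell. Ddit3 encodes CHOP, a transcription factor induced by misfolded proteins. Its intensity was -737, -548, -155 and -287 early, all at the floor, and 478, 885, 720, 729 and 249 late, at least 2.83-fold higher (adjusted p = 0.0162). At day 0 it was -519 in experiment A and -203 in experiment B. The part of background signal in this rise was not tested. Its difference was 1.79 in experiment A and 0.33 in experiment B, a lower bound in both. Atf5, a leucine zipper factor of the same response, had 218, 69, 31 and 20 early and 943, 1251, 706, 470 and 260 late, 4.03-fold higher as a low estimate (adjusted p = 0.0202). At day 0 Atf5 had 439 in experiment A, above every early array, and 47 in experiment B. Herpud1, a membrane protein of the degradation pathway of the reticulum, had 50 to 292 early and 344 to 786 late. It passed with the block (1.57, adjusted p = 0.00121) and in experiment A alone (1.6, adjusted p = 0.0334). In the fit of both experiments without the block it did not pass (1.52, adjusted p = 0.0529). Atf4, which encodes the factor upstream of Ddit3, passed only with the block (752 to 2036 early, 1565 to 3788 late, 1.15, adjusted p = 0.00783). The same held for the alanyl-tRNA synthetase gene Aars (0.85, adjusted p = 0.0166) and the chaperone gene Dnajc3 (1.16, adjusted p = 0.00865). The call of Atf5 ended in 4 of 9 fits without 1 culture (days 2, 9 and 11 of experiment A and day 2 of experiment B, adjusted p from 0.0576 to 0.0643), and that of Ddit3 in 3 (days 1 and 2 of experiment A and day 2 of experiment B, 0.0508 to 0.0641). Of 54 probe sets for heat shock proteins and chaperonin 0 passed (median -0.14).

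Ribosomal protein genes stood lowest of the 43 lists. Of the 52 tested 4 fell and 0 rose. The median change was -0.43 over all arrays, -0.45 within experiment A and -0.40 within experiment B, and 8 of 52 were higher. With the block 11 fell and 0 rose. The median was -0.40 after quantile normalization and -0.51 after scaling to the median. Rpl12 had 7126, 4293, 4056 and 5770 early and 2015, 2440, 2406, 2376 and 3078 late, without overlap (-1.08 ± 0.20, adjusted p = 0.00924). Rpl13a had 1950, 1210, 730 and 1680 early and 685, 467, 415, 209 and 519 late (-1.61 ± 0.35, adjusted p = 0.0264), and Rps26 2296, 1054, 1354 and 2000 early and 716, 905, 275, 196 and 697 late (-1.75 ± 0.39, adjusted p = 0.0363). Rpl10a was lower by less, at 5476 ± 788 early and 3040 ± 783 late (-0.87 ± 0.20, adjusted p = 0.0371). Each of the 4 had every late array below every early one. Probe sets of ribosomal proteins can share signal with the many processed copies of these genes. Leaving out 1 culture ended the calls of Rpl13a in 6 of 9 fits (days 1, 2, 9, 11 and 14 of experiment A and day 2 of experiment B, adjusted p from 0.06 to 0.156), Rps26 in 5 (days 1, 2, 11 and 14 of experiment A and day 2 of experiment B, 0.0585 to 0.184) and Rpl10a in 7 (all but days 3 and 8 of experiment A, 0.0524 to 0.14).

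Other parts of gene expression and metabolism gave few calls, as did the tested probe sets as a whole (0.984%). Translation factors and tRNA synthetases (65 probe sets, median -0.11), splicing factors (75, -0.11), nucleolar proteins (46, -0.04), the proteasome (70, -0.06) and oxidative phosphorylation (77, -0.04) had 0 calls each. Kpna2, an importin that carries proteins into the nucleus, had 8010, 8299, 3673 and 4672 early and 3084, 2039, 1814, 1837 and 3054 late (-1.34 ± 0.26, adjusted p = 0.0155). Hk1, the hexokinase that starts glycolysis, fell by the least of all genes called, from 4540 ± 712 to 2528 ± 424 (-0.84 ± 0.18, adjusted p = 0.0233). It was the only call among 32 probe sets for glycolysis and lactate, in which Aldoa, an aldolase, rose with the block (0.68, adjusted p = 0.0266). The mitochondrial genes Prelid1, which moves phospholipids between the membranes, and Timm10b, a chaperone of protein import, also fell. Prelid1 had 1719 ± 340 early and 859 ± 134 late (-0.99 ± 0.22, adjusted p = 0.0358), and Timm10b 255 to 335 early and -59 to 143 late, with 4 late arrays at the floor (-1.06 ± 0.20, adjusted p = 0.011). With the floor doubled the difference of Timm10b was -0.10 (adjusted p = 0.616), and its call also ended on the arcsinh scale (0.119), with 9 arrays (0.083) and with early as days 1 and 2 (0.079). Without 1 culture, the calls ended of Kpna2 in 3 of 9 fits (days 1, 2 and 14 of experiment A, adjusted p from 0.052 to 0.0825), Hk1 in 5 (days 1, 9, 11 and 14 of experiment A and day 2 of experiment B, 0.0584 to 0.114) and Prelid1 in 7 (all but day 3 of experiment A and day 9 of experiment B, 0.0553 to 0.169).

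Immune genes moved both ways. Of 53 probe sets for the interferon response and antigen presentation 1 rose, 2 fell and 50 did not pass (median -0.01). Both decreases were those of Psmb8, a catalytic subunit of the immunoproteasome, which cuts peptides for presentation. On design a it had 1587, 1064, 1221 and 1064 early and 311, 574, 610, 464 and 548 late, without overlap. It fell by 1.32 ± 0.24 (adjusted p = 0.0083), and by 1.03 ± 0.21 on design b (adjusted p = 0.0212). Ifit3, an interferon-induced antiviral protein, had 179, -41, 45 and 63 early and 737, 554, 358, 381 and 753 late, 3.54-fold higher as a low estimate (adjusted p = 0.0162). Its adjusted p was 0.059 without day 2 of experiment A and 0.0538 without day 2 of experiment B. B2m, the light chain of class I molecules, had 12852 ± 2412 early and 14419 ± 3133 late (0.16 ± 0.32, adjusted p = 0.932). Cxcl12, a chemokine of stromal cells, had 1575, 1044, 893 and 1186 early and 448, 397, 458, 397 and 567 late. It fell by 1.35 ± 0.22, 2.56-fold (adjusted p = 0.00405), the only call among 36 probe sets for chemokines, cytokines and complement. Clu, which encodes the extracellular chaperone clusterin, rose with the block (1.09, adjusted p = 0.0299).

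Macrophage and blood cell markers gave 0 calls over 29 probe sets, with a median of 0.25 and 27 of 29 higher. The summed intensity of that list ran from 6683 to 12779 on the early and from 8621 to 20001 on the late arrays of design a, and from 12620 to 26623 and from 16752 to 21078 on design b, so the groups overlapped on both. The part of other cells in any result was not tested. Fewer cells of a type and less RNA per cell cannot be told apart in these cultures. Mesenchymal markers gave 1 rise (Dcn) and 1 fall (Acta2) over 19 probe sets, and muscle, endothelial, melanocyte and glial markers 0 calls over 24, 11 and 11.

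The remaining increases do not fall in a single list. Scg2 encodes secretogranin, a protein of dense-core secretory vesicles in neurons and endocrine cells. Its intensity was 108, 170, 469 and 135 early, 3 of them at the floor, and 1374, 1529, 2367, 1106 and 1478 late. It rose by 2.63 ± 0.38, 6.19-fold as a low estimate (adjusted p = 0.00255), by 2.54 in experiment A and 2.90 in experiment B. Vldlr, a receptor of lipoproteins and of reelin, had 150, 202, 896 and 311 early and 955, 1316, 1790, 1640 and 1115 late, with the lowest late array just above the highest early one (2.13 ± 0.40, adjusted p = 0.0129). It was the only call among 42 probe sets for cholesterol, fatty acids and lipid transport. The lipid droplet gene Plin2 fell with the block (-1.52, adjusted p = 0.00826).

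Among nuclear factors, Zbtb20, a zinc finger repressor, had 343, 555, 592 and 377 early and 1681, 1690, 1193, 1693 and 1005 late (1.64 ± 0.26, adjusted p = 0.00405). Wt1, a zinc finger factor first known from kidney development, had 414, 439, 417 and 531 early and 1496, 1203, 1172, 1560 and 980 late (1.50 ± 0.30, adjusted p = 0.0162), but its second probe set had a difference of 0.62 and did not pass. Both were higher late without overlap. Neat1, the nuclear long non-coding RNA that holds paraspeckles together, had 887 ± 267 early and 1829 ± 514 late (1.05 ± 0.25, adjusted p = 0.0499). Man1a, a mannosidase that trims N-glycans in the Golgi, had 149 to 194 early and 304 to 835 late (1.84 ± 0.31, adjusted p = 0.00474).

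Emb, an immunoglobulin-family adhesion protein, had 95 to 178 early and 278 to 458 late (1.26 ± 0.27, adjusted p = 0.0269), and Ermp1, a metallopeptidase of the endoplasmic reticulum, 179 to 501 and 542 to 940 (1.34 ± 0.31, adjusted p = 0.044). Tmem176a, a membrane protein, had 1043 ± 460 and 2351 ± 515 (1.27 ± 0.29, adjusted p = 0.0411), and Tspyl4, of the nucleosome assembly protein family, 108 ± 53.6 and 385 ± 113 (1.31 ± 0.30, adjusted p = 0.038). All 4 were higher on every late array than on every early one. Lysosomal genes gave 0 calls over 50 probe sets with a median of 0.22, and the subunit gene Hexa of the enzyme that breaks down gangliosides rose with the block (1.28, adjusted p = 0.0299). Among these genes and those of the nuclear factors, leaving out 1 culture ended the calls of Ermp1 (all but days 3 and 8 of experiment A, adjusted p from 0.0855 to 0.217), Neat1 (all but day 3 of experiment A and day 9 of experiment B, 0.0612 to 0.228), Tmem176a (the same 7 cultures, 0.0625 to 0.189), Tspyl4 (days 1, 2, 9, 11 and 14 of experiment A and day 2 of experiment B, 0.0738 to 0.156) and Emb (days 1, 2, 3, 9 and 14 of experiment A and day 2 of experiment B, 0.0557 to 0.123). It also ended those of Wt1 (days 1, 2 and 14 of experiment A, 0.0566 to 0.0641) and Vldlr (days 1 and 2 of experiment A, 0.059 to 0.0641), but not those of Scg2, Zbtb20 and Man1a, of which that of Man1a ended in experiment A alone (0.0528).

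Over the 43 lists, 22 held at least 1 call, and 38 of the 50 genes called were in one. The share of all tested genes that were in a list was not counted. The lists were also written with earlier results of these data known, so the 38 are a description only. The median change was above 0 for 27 lists and below 0 for 16, between -0.43 for ribosomal proteins and 0.25 for macrophage and blood cell markers. The lists lowest by median were ribosomal proteins, mitosis and cyclins (-0.31), the actin cytoskeleton (-0.22) and DNA replication (-0.19). They had only decreases among their calls. After the macrophage list, the highest were otic and inner ear development (0.24), antioxidant genes (0.22) and lysosomal genes (0.22).

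**Figure D5:**
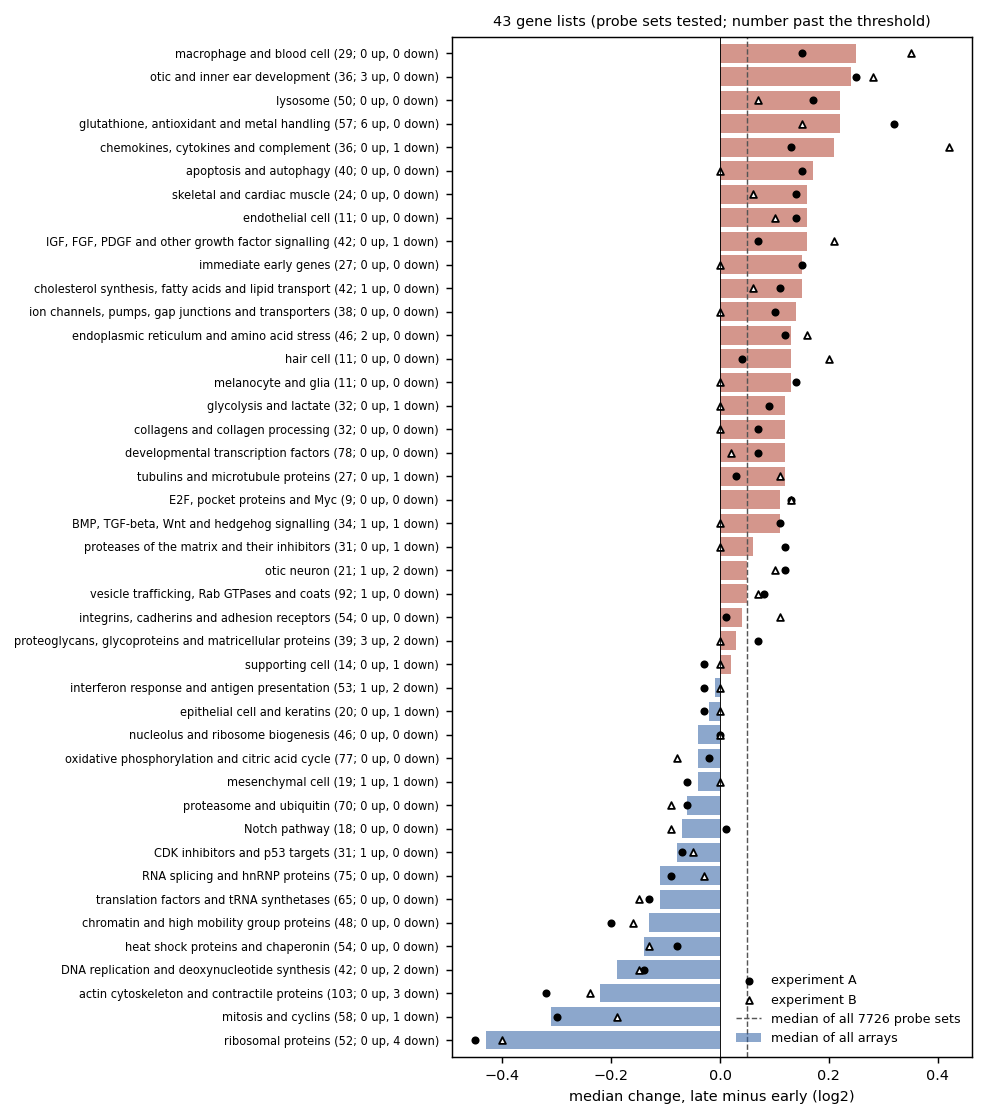
Median change from early to late days (x axis, log2) of 43 gene lists, as bars over all arrays, with circles for experiment A and open triangles for experiment B. Each label gives the probe sets tested and the number past the threshold in each direction, and the dashed line is the median of all 7726 probe sets (0.05).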

How the data were processed

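Gene expression of UB/OC-1 cells was measured on array designs a and b. The deposited values are intensities, linear whole numbers scaled by the authors to a like trimmed mean (300.4 to 300.8 on every array, from the values), of which 22.9% on design a and 33.0% on design b are negative. Which software and background method made them is not stated in those sources. Each design was analysed in its own table, without its 61 control probe sets, and no column was left unused. Values below the floor (75th percentile of the size of a design's negative values) were set to it and the deposited intensities taken to log2. Probe sets above it on at least 2 of 16 arrays were tested.

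A linear model (limma 3.58.1 under R 4.3.3, with lmFit and then trended, robust eBayes) was fitted over 4 phases (day 0, early, middle and late), with 12 residual degrees of freedom, two-sided, adjusted by Benjamini-Hochberg over both designs, at a threshold of 0.05. The fit was also run on simulated arrays with known changes in probe sets well above the floor. Those arrays had independent noise and no experiment effect, so pairing and changes near the floor were not checked. Array quality was compared by exact permutation tests. The number of arrays limits the precision. Symbols came from the platform annotation and promoters from a RefSeq table (GRCm38.p6), in which 51 of the 58 named genes matched.

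By the labels several days come from 1 experiment. The A minus B differences of 2 days went together over probe sets in all 6 pairs of days on both designs (r from 0.27 to 0.73), so experiment pairs the samples and results with it as a block are given where they differ. Named genes were the 10 largest increases and decreases with 1 symbol, the next 10 by adjusted p, the next 10 by intensity, the next 5 by smallest change, up to 4 called members of each of 43 lists in each direction, and 12 key genes whatever their values. Genes that passed only with the block lie outside that rule and are the list members that did so. The comparison, lists and rule were chosen with earlier results of these data known. Alternatives covered the floor, filter, scale, normalization, samples, block, covariates and days, and the closing section gives their effect.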

Additional observations from a re-analysis of the deposited data

Results flagged for a closer look

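In 12 of the 116 groups of named genes (4 early or 5 late arrays), 1 array stood apart from the others by Dixon's test at the 95% level. Chance flags about 1 in 20 groups of freely varying values. That rate cannot be set against the 12 here, since in 6 of them all the other arrays were tied at the floor, which fixes the ratio tested. Values are log2 intensities after the floor. Day 3 of experiment A was high among the early arrays for Scg2 (8.87), Gstm1 (11.68), Gclc (7.27) and Tspyl4 (7.51), and day 1 of experiment A for Atf5 (7.77) and Ifit3 (7.48). For Scg2, Atf5, Ifit3, Gclc and Tspyl4 the other 3 early arrays were tied at the floor. Among the late arrays, day 9 of experiment B was low for Dcn (12.33) and high for Cdkn1a (9.86) and Rrm2 (9.13). Day 8 of experiment A was low for Gata2 (9.21) and high for Timm10b (7.16), where the other 4 arrays were at the floor, and day 11 of experiment A was low for Pcna (8.45). Leaving out day 3 of experiment A gave 118 calls in place of 76, and leaving out day 9 of experiment B gave 92. The part of these arrays in the results was not tested further.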

How the results depend on the processing

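All 49 named genes called kept their direction under each of the 25 alternatives that tested them (a filter of 8 arrays tested 47), and 8 kept their call under all of them (Aldh1a1, Bmp4, Cxcl12, Fn1, Scg2, Tmsb10, Tpm1 and Zbtb20). In place of 76 calls (33 higher, 43 lower), there were 40 (17, 23) with no filter on low values, 37 (16, 21) from a fit of only the 9 early and late arrays, and 31 (11, 20) in experiment A alone. There were 184 (82, 102) with experiment as a replicate block, 140 (71, 69) with early as days 1 and 2, 250 (159, 91) with late as days 11 and 14, 220 (90, 130) for the slope on log2(day) and 166 (85, 81) with the noise level of the array as a covariate. Leaving out 1 culture gave 30 to 118 calls, 10 to 57 of them higher and 18 to 61 lower. Under the other alternatives, with other floors, a filter of 8 arrays, an arcsinh scale, quantile normalization, median scaling, late as days 9 to 14 or eBayes without trend and robust, it was 70 to 102. Calls within experiment A alone numbered 7 in place of 31 with the floor doubled and 82 with a filter of 8 arrays. Without a filter 13057 probe sets were tested, and the fits of 9 arrays, of experiment A and without 1 culture have fewer samples. With late as days 11 and 14, days 8 and 9 join the middle group. The late group then holds experiment A alone, so later days and experiment cannot be told apart there. The causes of the other shifts were not tested.

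Of the 49 named genes called, the block, the noise covariate and the filter of 8 arrays ended no call. Experiment A alone ended 30, those of Dcn, Gas1, Vldlr, Cp, Ogn, Man1a, Ifit3, Sdc2, Gstm1, Gclc, Gstm2, Wt1, Ermp1, Tspyl4, Tmem176a, Emb, Gata2, Neat1, Nfe2l2, Rpl10a, Prelid1, Basp1, Ube2c, Rrm2, Rpl13a, Fst, Rrm1, Rps26, Krt18 and Timp1. The fit of 9 arrays ended 27 and no filter 20. Late as days 11 and 14 ended 18 (Gsta3, Atf5, Ifit3, Sdc2, Gstm2, Ermp1, Tmem176a, Emb, Gata2, Neat1, Nfe2l2, Hk1, Basp1, Ube2c, Psmb8, Acta2, Rrm1 and Igfbp7) and made the differences of Cp (2.62), Rps26 (-2.78), Krt18 (-2.44) and Fn1 (-2.54) larger by over 1.5-fold. Late as days 9 to 14 ended 14, the floor doubled 7, median scaling 6 (Gstm2, Ermp1, Tspyl4, Tmem176a, Neat1 and Nfe2l2), the lower floor 5 (Ermp1, Tmem176a, Emb, Neat1 and Rrm2), eBayes without trend and robust 4 (Dcn, Gstm2, Tmem176a and Rps26), quantile normalization 3 (Ermp1, Hk1 and Rpl12), the slope 3 (Atf5, Ddit3 and Gata2), the arcsinh scale 2 (Timm10b and Rrm2) and early as days 1 and 2 1 (Timm10b). Values under the floor limit what can be said of dim genes, and the 5 and 4 arrays per group limit the precision of all.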

Other observations

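Among 42 probe sets for growth factor signalling, Igfbp7 was the only call, and Ptn, which encodes the heparin-binding growth factor pleiotrophin, rose with the block by 1.32 (adjusted p = 0.0434), from 153 to 534 early to 233 to 1296 late. Serpinf1, which encodes the secreted serpin known as pigment epithelium-derived factor, rose in the same fit by 0.96 (adjusted p = 0.0368). Of 92 probe sets for vesicle trafficking, Scg2 was the only call, and Arf3, a small GTPase of the Golgi, rose with the block by 1.06 (adjusted p = 0.0267), with every late array above every early one. Integrins, cadherins and adhesion receptors (54 probe sets, median 0.04), ion channels and transporters (38, median 0.14) and apoptosis and autophagy genes (40, median 0.17) held 0 calls, with 32, 28 and 26 of them higher late.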
